A study of Mus musculus with 6 samples.

Results

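The 87 genes described here were taken by symbol, as every name in the authors' gene table that begins with Rpl or Rps followed by a digit, a p or an a, without the Rps6k kinases. They are 87 of 14927 listed genes. Of these, 76 are the genes of the cytosolic ribosome itself, called core below: 42 of the large subunit, 31 of the small subunit and 3 of the stalk. The other members are 6 paralogs, 4 genes with a pseudogene symbol, and Rps19bp1, whose product binds a ribosomal protein and is not one. The RNA came from smooth muscle cells grown out of the thoracic aortas of wild-type C57BL/6 mice and used at passages 3 to 7 by the sample labels, while the growth protocol starts one passage earlier. The cells had been kept for 24 h in 0.5% serum and then received vehicle or recombinant TWEAK at 100 ng/mL, in 0.5% serum, for 24 h more, with 3 libraries in each group. TWEAK belongs to the tumour necrosis factor family of cytokines, and its receptor is Fn14. The column headers number the libraries of each group as experiments 1 to 3. Whether the experiments came from separate animals or cultures is not stated, so p-values measure only a spread within these libraries, which may be technical. In the main test it is the spread, across the 3 experiments, of the difference between TWEAK and vehicle.

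The cytosolic ribosome consists of a small subunit that reads the mRNA and a large subunit that joins amino acids, each built of ribosomal RNA and a fixed set of proteins. In mammals the mRNAs of these proteins begin with a tract of pyrimidines at the transcription start (the 5' TOP tract), through which the growth-responsive kinase complex mTORC1, acting in part by way of the RNA-binding protein Larp1, controls how strongly they are translated. RNA sequencing counts the mRNA and not its translation.

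A pyrimidine-rich start is common among these genes but not found in all, and 4 promoters are printed to show it with and without a run. Each begins 50 bases before the start annotated by RefSeq on GRCm38.p6 and ends 30 bases after it, 5' to 3'. Capitals mark each run of at least 8 bases that are all C or T, also where it lies before the annotated start, as the first run of Rpl39 does. Rps6 lies at chr4:86857338-86857417 (minus strand), Rpl39 at chrX:37085193-37085272 (minus strand), Rpl22l1 at chr3:28805458-28805537 (plus strand) and Rpl7l1 at chr17:46782627-46782706 (minus strand).
Rps6: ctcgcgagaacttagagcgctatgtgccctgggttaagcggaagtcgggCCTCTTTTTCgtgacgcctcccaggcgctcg
Rpl39: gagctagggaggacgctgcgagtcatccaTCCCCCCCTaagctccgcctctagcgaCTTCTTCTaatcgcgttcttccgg
Rpl22l1: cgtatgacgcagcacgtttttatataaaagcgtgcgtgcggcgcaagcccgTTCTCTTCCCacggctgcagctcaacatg
Rpl7l1: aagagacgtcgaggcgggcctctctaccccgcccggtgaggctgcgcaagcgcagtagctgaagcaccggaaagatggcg

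RefSeq promoters were matched for 63 of the 87 members, 56 of them core. Within 50 bases on either side of the annotated start, on the coding strand, a run of at least 8 pyrimidines was present in 45 of these 56 core promoters (80.4%). It was present in 32.4% of the 11618 matched promoters of all listed genes and in 35.7% of all 27025 promoters in the table. The letters CCGGAA, searched on both strands, stood in 15 of the 56 (26.8%) and in 15.1% of those of all listed genes. GCCATC, also on both strands, stood in 8.93% and 6.55%, and TATAAA, on the coding strand, in 7.14% and 2.22%. Annotated starts can lie away from the start that these cells used, and a match is not a measured site.

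Reads recovered over the listed genes ranged from 62632273 to 82118717 per library. All 5 listed smooth muscle markers (Acta2, Tagln, Cnn1, Myh11 and Smtn) were present and changed with TWEAK by limma, with a summed level of 306756 to 357587 normalized counts under vehicle and 183512 to 257839 under TWEAK. Markers of other cells were present too and none of those measured was at 0. The 6 measured macrophage markers, none of them called, summed in experiments 1, 2 and 3 to 48367, 8020 and 2887 normalized counts under vehicle and 46940, 7814 and 3144 under TWEAK. The 5 endothelial markers, none called, summed to 6285, 39525 and 21351 under vehicle and 5719, 34797 and 19777 under TWEAK. The 4 fibroblast markers, 3 of them called, summed to 10787 to 18826 under vehicle and 17808 to 42708 under TWEAK. In bulk RNA fewer cells of a type and less RNA per cell cannot be told apart.

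None of the 87 genes changed with TWEAK in the test across all genes. This was limma with the experiment as a block, on log2(normalized count + 1), and a gene was called where its p, adjusted over all genes by Benjamini-Hochberg, was under 0.05. That test called 13.7% of all genes, 8.11% higher and 5.55% lower with TWEAK. Without the block it called 0.0201% of all genes and again none of the members. At an unadjusted p under 0.05, 4 members were lower and none was higher, where 14.2% of all genes were lower and 16.1% higher by that rule. By the tools run on the recovered reads, edgeR, DESeq2 and limma-voom, no member passed either, and their unadjusted counts were 2, 1 and 2, all lower. The authors' deposited table also has no member among its 2702 genes at an adjusted p under 0.05. Its smallest adjusted p of a member is 0.134, for Rps15a-ps6.

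**Figure D1:**
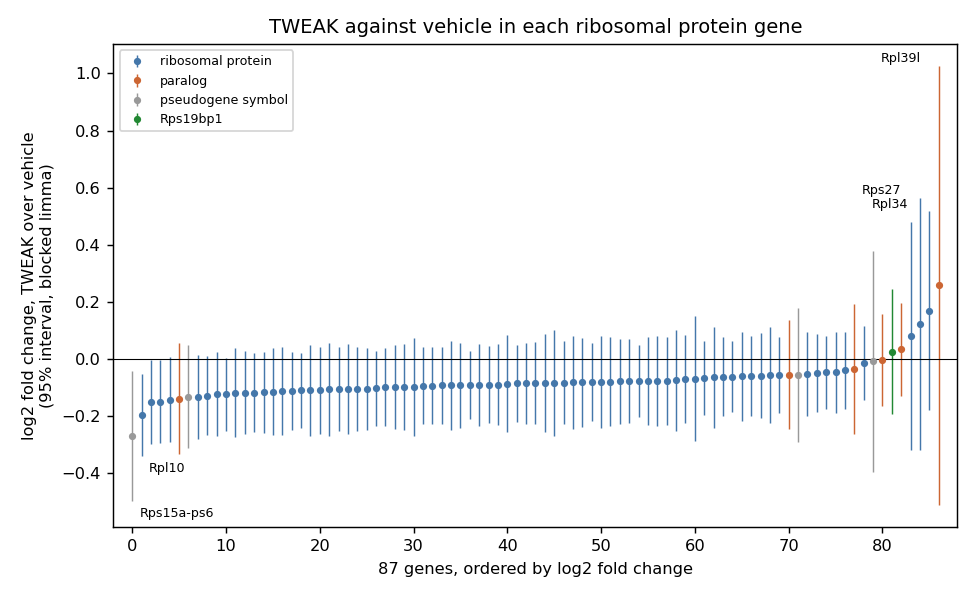
Log2 fold change of TWEAK over vehicle for each of the 87 genes, with its 95% interval from limma blocked by experiment, ordered by size and coloured by kind of gene. Most points lie between -0.2 and 0, most intervals cross 0, and the widest interval belongs to Rpl39l, the least abundant member.

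The estimates were small and mostly on one side. The median log2 fold change of the 87 genes was -0.08, a decrease of a few percent, with an interquartile range of -0.11 to -0.06, against a median of 0.02 over all genes. The estimate was negative for 81 of the 87 members and for 47.7% of all genes. In 63 members the TWEAK library lay below the vehicle library in each of the 3 experiments, as it did for 27.0% of all genes. The members share libraries and one scaling, so these are not 63 separate observations. Abundant genes outside the 87 leaned the same way, though less. Among the 1496 with a mean of at least 10000 normalized counts the median was -0.05 and 59.2% of estimates were negative. For 604 of those 1496 genes the TWEAK library was the lower one in each experiment. Without pairing by experiment the groups hardly separated: all TWEAK libraries lay below all vehicle libraries for 1 member, Rpl36al, against 7.42% of all genes. The median range of the members among experiments was 0.29 on the log2 scale, and the median size of their treatment estimates was 0.09. Overlap of the groups therefore says little about differences within experiments. For the 73 core genes with a mean of at least 1000 normalized counts the 95% intervals reached from -0.34, the lower bound of Rpl10, to 0.15, the upper bound of Rps16. These bounds correspond to 0.791 and 1.11 times the vehicle level, and the intervals are not adjusted for the number of genes.

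Among large subunit genes Rpl10 had the smallest adjusted p. Rpl10 is fitted into the subunit late in its maturation, near the sites that hold tRNA. It had 48304, 56894 and 54537 normalized counts in the vehicle libraries of experiments 1, 2 and 3, and 43656, 51365 and 44582 in the TWEAK libraries. Each TWEAK library was below its own vehicle library, while the groups overlapped. The log2 fold change was -0.19 (SE 0.06), and the limma adjusted p was 0.0850, or 0.739 without the block. Rpl39, a very small protein at the tunnel through which the new chain leaves, had 14615, 17213 and 16582 with vehicle and 13076, 15792 and 14783 with TWEAK. It too was lower in every experiment with overlapping groups (log2 fold change -0.15, SE 0.06, limma adjusted p = 0.157). For Rpl37a the estimate was -0.15 (SE 0.06, limma adjusted p = 0.156), with group means of 19637 ± 1544 and 17716 ± 1455 normalized counts (SD, n = 3).

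Other large subunit genes with known special roles lay closer to 0. Rpl13a, often used as a reference gene, had means of 52926 ± 6407 and 48571 ± 5312 normalized counts under vehicle and TWEAK (SD, n = 3; log2 fold change -0.12, limma adjusted p = 0.179). Its log2 ratios in the 3 experiments were -0.09, -0.11 and -0.16. Rpl5 and Rpl11 form a particle with a small ribosomal RNA that, outside the ribosome, binds the p53 regulator Mdm2. Rpl5 had 47488, 46183 and 52806 with vehicle and 44463, 49230 and 46336 with TWEAK, so that TWEAK was the higher library in experiment 2 and the lower one in the others (log2 fold change -0.06, SE 0.07). Rpl11 had 24665 ± 2822 and 23623 ± 2627 (SD, n = 3; log2 fold change -0.06, SE 0.06). Rpl3, next to the centre that joins amino acids, had the core estimate nearest to 0, with 65964 ± 8606 and 65331 ± 8047 (log2 fold change -0.01, SE 0.05). Over the 42 core genes of the large subunit 40 estimates were negative and the median was -0.08.

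The small subunit gave a median of -0.09, with 30 of 31 estimates negative. Rps20, of the subunit's head, had the smallest adjusted p there. Its 31252, 35410 and 33681 normalized counts with vehicle stood against 28737, 33568 and 28738 with TWEAK (log2 fold change -0.14, SE 0.06, limma adjusted p = 0.179). Rps6, the substrate of the S6 kinases, had 45036, 52473 and 50957 with vehicle and 42647, 50868 and 45833 with TWEAK. The TWEAK library was the lower one in each experiment, and the groups overlapped (log2 fold change -0.09, SE 0.05, limma adjusted p = 0.304). Rps2 had 75764 ± 7779 and 71752 ± 6188 normalized counts (SD, n = 3; log2 fold change -0.08). Rpsa, also known as the laminin receptor precursor, had 73524 ± 7855 and 70394 ± 6897 (-0.06). Rps3, at the channel where mRNA enters, had 49110 ± 7263 and 47603 ± 7376 (-0.05), and Rps19, mutated in human Diamond-Blackfan anaemia, had 25258 ± 2443 and 23856 ± 2237 (-0.08).

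The stalk is the flexible arm that brings translation factors to the ribosome. Its base protein gene Rplp0 had 86425, 108033 and 105882 normalized counts with vehicle and 82989, 102121 and 96553 with TWEAK, the highest counts of any member. The log2 fold changes were -0.09 for Rplp0 (SE 0.05, limma adjusted p = 0.260), -0.09 for Rplp1 (SE 0.06) and -0.10 for Rplp2 (SE 0.06). All 3 stalk genes were lower with TWEAK in each experiment.

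The 6 paralogs are relatives that can stand in for, or resemble, a core protein. None was called, and their median log2 fold change was -0.02. Rpl36al, an intronless relative of Rpl36a, had 8137, 8118 and 8301 normalized counts with vehicle and 7339, 8100 and 6922 with TWEAK, so its groups did not overlap, although in experiment 2 the libraries were nearly equal (log2 fold change -0.14, SE 0.08, limma adjusted p = 0.291). Rps27l, a p53 target, had 9605 ± 1791 and 9840 ± 1872 (SD, n = 3; log2 fold change 0.03). Rpl22l1, whose level Rpl22 is known to restrain, had 4931, 4586 and 5919 with vehicle and 4583, 5156 and 5268 with TWEAK. Rpl39l, known from male germ cells, was close to the detection limit, with 49.2, 34.9 and 10.4 with vehicle and 54.8, 30.6 and 18.9 with TWEAK, and the interval of its log2 fold change ran from -0.51 to 1.03. Rps4y2 is an older symbol of Rps4l, which RefSeq lists as a transcribed pseudogene, and it had 1523 ± 351 and 1465 ± 327.

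Scaling cancels in the ratio of a paralog to its partner within a library, and 6 such ratios were compared. The log2 ratio of Rpl22l1 to Rpl22 was -1.85 ± 0.27 with vehicle and -1.83 ± 0.13 with TWEAK (SD, n = 3), and that of Rpl36al to Rpl36a was -0.89 ± 0.15 and -0.95 ± 0.08. That of Rpl7l1 to Rpl7 was -2.58 ± 0.27 and -2.50 ± 0.09. The two-sided exact permutation p, from a test that did not pair libraries by experiment, was 1, 0.6 and 0.8 for these pairs. For Rps27l to Rps27, Rpl39l to Rpl39 and Rps4y2 to Rps4x it was 0.9, 0.7 and 0.8, and after Benjamini-Hochberg adjustment over the 6 pairs each exact p was 1. With 3 against 3 libraries this test cannot go below 0.1. In each of the 6 pairs at least 1 experiment went against the others in sign.

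A few members stood far below the rest. The core genes Rpl30, Rpl34 and Rps27 had means of 112 to 149 normalized counts with vehicle and 119 to 168 with TWEAK, where the other 73 core genes had means of 10362 to 97000 over all libraries. They are also the 3 core genes with a positive estimate (log2 fold changes 0.08, 0.17 and 0.12), and each interval crossed 0 widely. Rpl34 had 125.0, 199.9 and 123.3 with vehicle and 140.9, 219.5 and 142.2 with TWEAK, higher in every experiment, and was the only member of the 87 for which that held. Ribosomal protein genes have many processed pseudogenes of nearly the same sequence. In GENCODE transcripts, 98.6% of the 50-base windows of Rps27 also occur in a transcript of another gene, as do 50.6% of those of Rpl34 and 47.8% of those of Rpl30. The median over the 76 core genes was 51.3%, and Rpl10, with 92.1%, had a mean of 49890. The sources used here do not give the rule for reads that match several genes. The levels of single members, these 3 in particular, are therefore uncertain, and the part of shared reads in the results was not tested.

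The 4 genes with a pseudogene symbol are read with the same caution. Rps15a-ps6 had the largest negative estimate of the 87. Its 2441, 2435 and 2253 normalized counts with vehicle stood against 1797, 2272 and 1875 with TWEAK, and the groups overlapped by a narrow margin (log2 fold change -0.27, SE 0.09, limma adjusted p = 0.115; 0.654 without the block). Its parent gene Rps15a had an estimate of -0.08. For Rpl31-ps12, Rps15a-ps4 and Rps19-ps3 the estimates were -0.13, -0.05 and -0.01. Rps19bp1, named for binding Rps19, had 1287 ± 325 and 1298 ± 245 (SD, n = 3; log2 fold change 0.03).

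**Figure D2:**
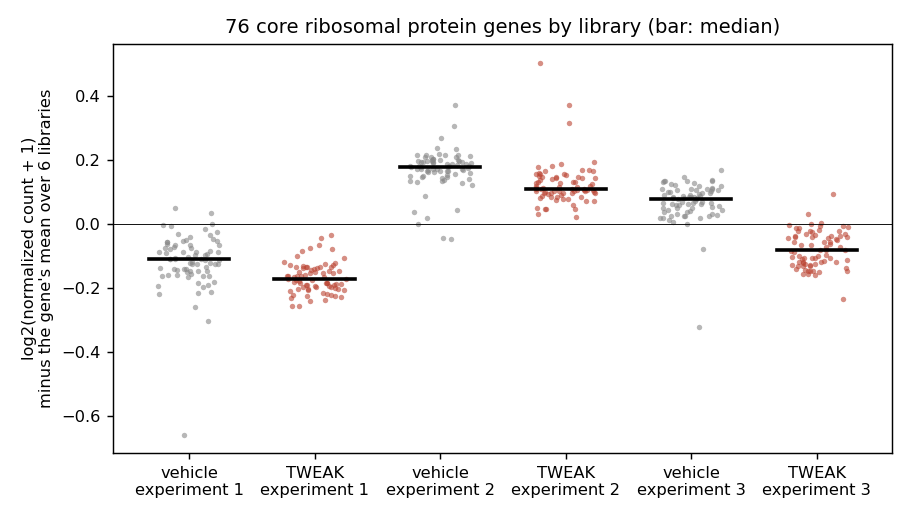
Log2(normalized count + 1) of each of the 76 core genes in each library, as a difference from that gene's mean over the 6 libraries, with a bar at the median. The medians of both libraries of experiment 1 lie below 0, those of experiment 2 lie above it, and within each experiment the TWEAK median is below the vehicle median.

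These genes differed more between experiments than between treatments. The median deviation of the 76 core genes from their own means was -0.11 and -0.17 on the log2 scale in the vehicle and TWEAK libraries of experiment 1, 0.18 and 0.11 in those of experiment 2, and 0.08 and -0.08 in those of experiment 3. Averaged over both libraries, experiment 2 was highest for 81 of the 87 members (6729 of all 14927 genes) and experiment 1 lowest for 77 (5595 of all genes). The range among experiments exceeded the size of the treatment estimate for 83 members, as it did for 12118 of all 14927 genes. The block term of limma, adjusted over all genes, was called for 48 of the 87, against 48.6% of all genes, so the share that differed was near the background. Experiment 1 also had the highest macrophage marker sums, 48367 and 46940 normalized counts, and experiment 2 the highest endothelial ones, 39525 and 34797, and the part of those cells in the levels of these genes was not tested. The 4 core genes with the largest adjusted p-values for the limma block term, named after their values were seen, were Rpl21 (0.977), Rps3a1 (0.728), Rpl5 (0.563) and Rpl23 (0.546).

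The size of the difference varied among experiments. The median log2 ratio of TWEAK to vehicle over the 87 members was -0.06 in experiment 1, -0.06 in experiment 2 and -0.15 in experiment 3, while the medians over all genes were -0.02, 0.04 and -0.02. In these experiments 75, 70 and 84 of the 87 members were lower with TWEAK, as were 7850, 6792 and 7862 of all 14927 genes. As a share of all reads over the listed genes, the members took 2.86%, 3.90% and 3.33% in the vehicle libraries and 2.87%, 3.76% and 3.16% in the TWEAK libraries. By this measure experiment 1 showed no decrease, with a difference of 0.00884 percentage points, and in experiments 2 and 3 the differences were -0.141 and -0.168 points. The group means were 3.36% ± 0.521 and 3.26% ± 0.454 (SD, n = 3). The difference within experiments was -0.100 ± 0.0954 points (SD, n = 3), about as large as its own spread.

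**Figure D3:**
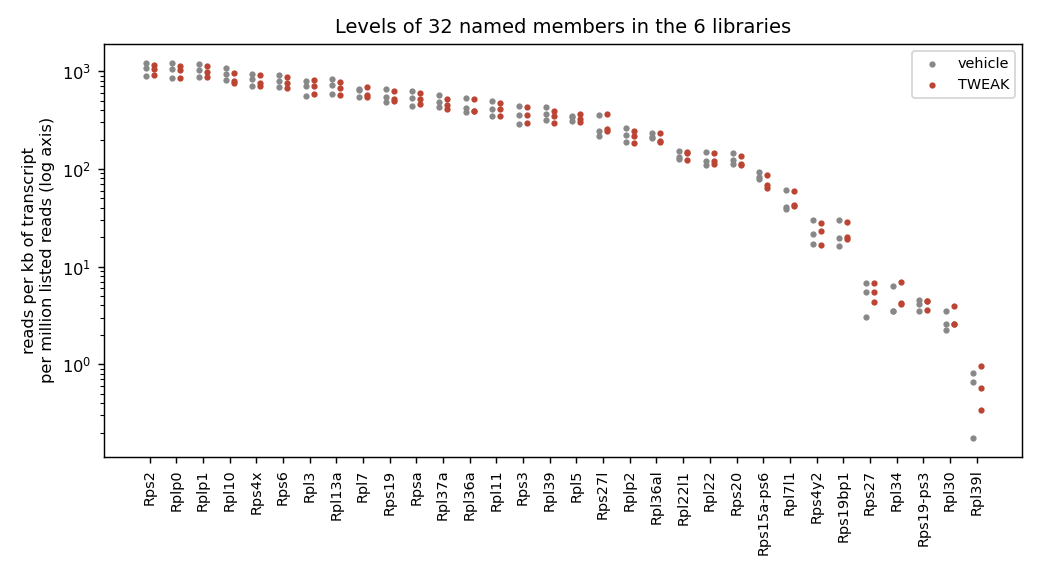
RPKM, as reads per kb of transcript and depth over the listed genes, on a log axis, for the 32 members chosen by the fixed rule, with 3 vehicle and 3 TWEAK points per gene, ordered by mean. The levels run from 1058 for Rps2 to 0.586 for Rpl39l, with Rpl30, Rps19-ps3, Rpl34 and Rps27 next above it.

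Compared per length, as RPKM computed from the recovered reads, the core genes had a median level of 472, with an interquartile range of 349 to 652. The median over all genes was 8.95. The highest were Rps2 (1058), Rplp0 (1023), Rplp1 (1019) and Rpl41 (1007). Apart from Rpl30, Rpl34 and Rps27, at 2.92 to 5.36, the lowest core level was 42.5 for Rps15a, whose annotated transcript of 5179 nt is far longer than the median of 815 nt of the core genes. Per-length levels depend on such transcript models. Rpl22l1 (138) and Rpl22 (127) were close on this scale, while Rpl39l (0.586) was far below Rpl39 (359). Rps4y2 (22.7) was likewise far below Rps4x (809).

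**Figure D4:**
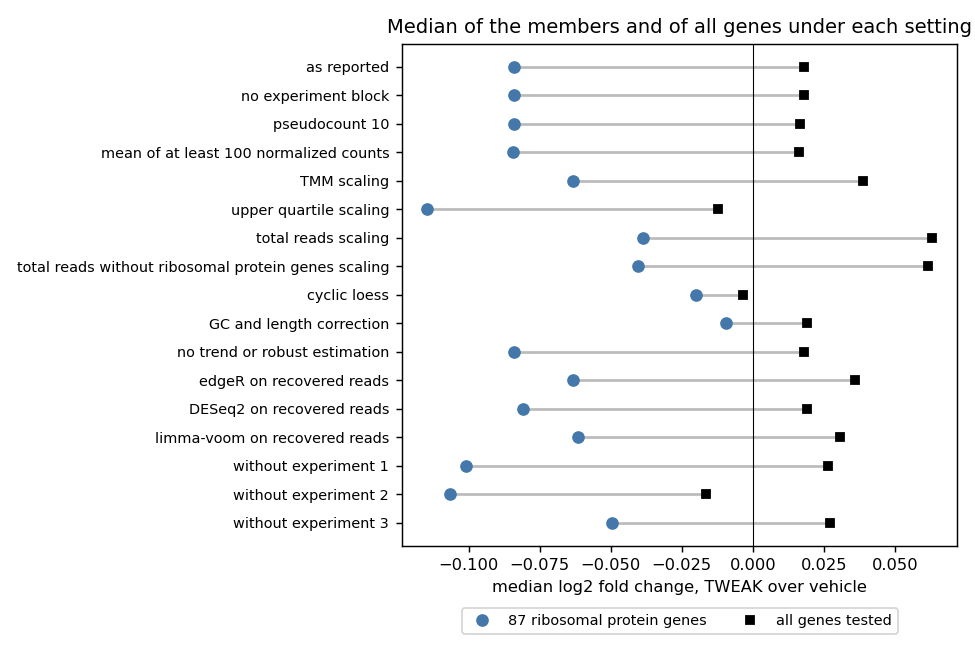
Median log2 fold change of the 87 members (circles) and of all genes tested (squares) under each way of scaling, testing or leaving out an experiment. The member median is negative in every row, and the distance between circle and square shrinks with cyclic loess and with the GC and length correction. The rows without the block and without trend or robust estimation repeat the reported medians by design.

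A shift this small depends on how libraries are scaled. The member median was -0.06 with TMM factors (trimmed mean of M-values), -0.11 with upper quartile scaling and -0.04 with total reads, while the medians over all genes were 0.04, -0.01 and 0.06. Relative to all genes the members were thus lower by about 0.10 under each, since these scalings move all genes together. With cyclic loess, which adjusts libraries along the abundance of genes, the member median was -0.02, with 58 of 87 estimates negative. The median over all genes was then -0.003. With each library corrected for the GC content and length of transcripts the member median was -0.01, with 48 of 87 negative, and that over all genes 0.02. Ribosomal protein transcripts are short, with a median of 791 nt against 2678 nt over all genes. Among genes outside the 87 with transcripts of up to 1000 nt the median log2 fold change was -0.07 (1362 genes), above 1000 and up to 3000 nt it was -0.01 (7040 genes) and above 3000 nt it was 0.07 (6296 genes). Core genes were also split by a run of at least 8 pyrimidines within 50 bases of the annotated start. The median was -0.08 for the 45 with one and -0.09 for the 11 without. The run can lie anywhere in that window, so this is not a split by TOP tract.

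Under some settings single members passed. Upper quartile scaling called Rpl10 (log2 fold change -0.23, limma adjusted p = 0.0414) and Rps15a-ps6 (-0.30, 0.0490). The GC and length correction called Rps15a-ps6 (-0.30, 0.0214) and Rps20 (-0.32, 0.0221). The annotated transcript of Rps20 is 3706 nt long, and the part of that length in the call was not tested. Leaving out experiment 2 gave 3 calls by limma: Rps15a-ps6 (-0.35, adjusted p = 0.00215), Rpl10 (-0.22, 0.0169) and Rpl36al (-0.21, 0.0255). Leaving out experiment 1 or 3 gave none, with smallest limma adjusted p-values of 0.172 and 0.403. Over all 14927 genes, upper quartile scaling called 1591 higher and 1392 lower, and leaving out experiment 2 called 1930 and 1972. The GC and length correction called 2068 and 1447 of the 14785 genes with a transcript length. Under each of these settings calls were thus rarer among the members than over all genes.

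The genes that work with these proteins were taken from fixed lists. Gnb2l1, which the symbol rule leaves out, encodes Rack1, a scaffold on the small subunit, and had means of 81888 ± 9871 and 77515 ± 8626 normalized counts under vehicle and TWEAK (SD, n = 3). It was not called, at an estimate of -0.08 (SE 0.05) and an adjusted p of 0.338 by limma. The nearest relatives in function, the 76 mitochondrial ribosomal protein genes, also had no call in either direction, at a median of -0.01 with 43 negative. Mrpl30 and Mrpl20, the most abundant, had estimates of -0.05 and -0.15. An unadjusted limma p under 0.05 was found for 5 of the 76, all lower, where 14.2% of all genes were lower by that rule. Of 17 other genes whose mRNAs carry a TOP tract, 1 rose, Pabpc1, the poly(A)-binding protein, from a mean of 13093 ± 2377 to 16821 ± 2044 (SD over 3 libraries, normalized counts; log2 fold change 0.37, SE 0.07, limma adjusted p = 0.0250; 0.578 without the block). Over all genes 8.11% were called higher, so 1 of 17 is not above the background, and the call was lost without experiment 1, without experiment 3, and without trend or robust estimation (limma adjusted p = 0.116, 0.101 and 0.0784). The median of that list was -0.03. Of 18 genes of mTORC1 and TOP control none was called by limma, and 1 was higher and 1 lower at an unadjusted p under 0.05. By that rule 16.1% of all genes were higher and 14.2% lower. The most abundant genes of that list were Eif4ebp1 (-0.21, limma adjusted p = 0.122), an inhibitor of cap-dependent translation, and Larp1 (-0.04).

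The factors that build the ribosome were looked at in the same way. Of 38 genes of ribosome assembly and ribosomal RNA processing, 6 rose, none fell and 32 did not pass, with a median log2 fold change of 0.21, 35 of 38 estimates positive, and 14 higher and 1 lower at an unadjusted limma p under 0.05. Over all genes 8.11% were called higher, and 16.1% were higher at the unadjusted threshold. Eif6, which keeps immature large subunits from joining small ones, had a log2 fold change of 0.46 (SE 0.06, limma adjusted p = 0.0102). Its log2 ratios were 0.49, 0.44 and 0.47 in the 3 experiments. Nop56, of the complex that methylates ribosomal RNA, rose by 0.38 (adjusted p = 0.0233), Dkc1, the pseudouridine synthase dyskerin, by 0.83 (0.0297) and Rrs1 by 0.37 (0.0307). The calls of Nop56, Dkc1 and Rrs1 were lost without trend or robust estimation (limma adjusted p = 0.0667, 0.0760 and 0.0647). Of 14 measured genes of RNA polymerase I, which transcribes ribosomal RNA, 1 rose, Polr1b, by 0.31 (limma adjusted p = 0.0416), with a median of 0.09. That share is near the 8.11% of all genes, and the call was lost with upper quartile scaling, with cyclic loess, without trend or robust estimation, and without experiment 1 or 3 (limma adjusted p from 0.0547 to 0.270). Npm1 stands in both the TOP and the assembly list. These calls were lost without the block, where limma called none of these genes, and no test of the assembly genes against the ribosomal protein genes was made. Without experiment 1 none of the assembly genes passed, without experiment 2 there were 13 and without experiment 3 there was 1. The counts over all 14927 genes moved too. They were 506 higher and 189 lower without experiment 1, 1930 and 1972 without experiment 2, and 512 and 154 without experiment 3.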

How the data were processed

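RNA of 6 libraries, 3 with vehicle and 3 with TWEAK was sequenced after standard Illumina library preparation, per the labels. The deposited table holds normalized counts, a signal whose values are, from the numbers themselves, reads divided by 1 factor per library. It also holds, per the file headers, the log2 fold change and its SE, a Wald score, p-values and adjusted p-values. DESeq2 is named in the submitters' processing notes; aligner, counter, strandedness, build and annotation are not stated there or in the labels. All values were whole multiples of the value of 1 read (100%, tolerance 0.01), so reads were recovered. Columns were matched to samples by treatment and experiment number in the headers.

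limma 3.58.1 in R 4.3.3 (trend, robust, two-sided) was fitted to log2(normalized count + 1) for all 14927 genes, with a mean of at least 1 as the filter, the experiment as a block and Benjamini-Hochberg adjustment over all genes. The pairing comes from the experiment numbers in the headers: deviations of same-numbered libraries from their group means correlated at 0.879, 0.868 and 0.734 across genes, other pairs at -0.760 to -0.126 (genes are not independent replicates). The deposited counts give precision limited by 3 libraries a group rather than by depth for most members. Alternatives used edgeR 4.0.16, DESeq2 1.42.0 and limma-voom on recovered reads, other scalings, a GC and length correction, and leaving out each experiment. Scripts were tested on simulated data. Transcript lengths and GC came from GENCODE M21 (14785 genes, all 87 members), taking the shortest protein-coding transcript with RefSeq and CCDS records where there was one.

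Members and lists were chosen with earlier results of these data known. The genes named were the called members (none), the 5 largest estimates in each direction, the 3 most and 3 least abundant by count and per kb, the paralogs with partners and 11 members of known role (32 in all), plus up to 4 called genes of each list or its 2 most abundant; others are named as examples chosen after their values were seen. 1 gene of a companion list is not reported here.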

Additional observations from a re-analysis of the deposited data

How the results depend on the processing

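Of 16 alternatives, 13 called no ribosomal protein gene; upper quartile scaling called 2 lower, the GC and length correction 2 and leaving out experiment 2 called 3 (0 to 3 over the experiments left out). The member median moved by more than its spread between experiments (SD 0.0537) with cyclic loess (-0.0198) and the GC and length correction (-0.00956). Without the replicate block the median was -0.0841, as with it, which the balanced design fixes in advance. Over all genes, 1210 were higher and 829 lower. The counts were 3 and 0 without the replicate block, 1946 higher with total reads, 1952 higher with total reads without the members, 2068 and 1447 with the GC and length correction, 1392 lower with upper quartile scaling and 404 lower without trend or robust estimation. Leaving out experiments gave 506 to 1930 higher and 154 to 1972 lower. The companion lists together had 8 higher and 0 lower. They had 0 higher without the block, 13 with upper quartile, 18 and 19 with the total-read scalings, 21 higher and 6 lower with the GC and length correction, 2 without trend or robust estimation, and 0 to 17 higher and 0 to 9 lower with experiments left out. The causes were not tested. Of the named genes' estimates, 671 under an alternative stayed on the same side of the threshold, while 24 calls were lost and 8 gained. A single library left out unpairs its partner, so experiments were left out whole.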
